A study of Mus musculus with 8 samples.

Results

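The endothelial marker genes are 10 genes, Pecam1, Cdh5, Kdr, Flt1, Tek, Tie1, Erg, Emcn, Vwf and Egfl7, that mark the cells lining blood vessels. Their summits were taken from the authors' deposited list of ATAC-seq peak summits of brown adipose tissue (BAT). A summit was a member when it lay in the gene body of one of these genes or within 50 kb of the transcription start site (TSS) of one of its curated RefSeq mRNAs. This stretch is called the locus below. There were 62 such summits of 32173 in the list, a share of 0.193%, over 1.52 Mb of sequence.

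ATAC-seq inserts adapters with the Tn5 transposase into DNA that nucleosomes leave open, and a summit is the highest point of a peak of such insertions. BAT nuclei came from 2 WT and 2 Dot1L-BKO mice that were 12 weeks old and had spent 4 hr at 4°C. The paper used males unless it stated otherwise. It fed mice either chow or a high-fat diet, without naming the diet of the ATAC-seq mice. Dot1L-BKO mice carry floxed Dot1l alleles and a Ucp1-Cre transgene, which is active in Ucp1+ cells, and WT mice were littermates with floxed alleles (Dot1l f/f). Ucp1 marks brown adipocytes, and recombination of Dot1l in endothelial cells was not measured here. The list gives 1 position and 1 value for each peak, the −log10 of its MACS2 q-value, called the score. It names the WT libraries against the Dot1L-BKO libraries, and which of them served as the control is not given in the sources used here. If the libraries of one genotype were the control of the other, a score would measure an excess over them and not open chromatin as such, and a missing summit could be a site open in both. Without a value per library, the depth is unknown, errors over replicates cannot be given, and the genotypes could not be compared. Everything below describes the list. In nuclei of a whole tissue, fewer nuclei of a cell type and less open chromatin in each of them cannot be told apart.

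Blood vessels carry oxygen, glucose and lipids to brown adipocytes, and BAT is among the most densely vascularised tissues. Endothelial cells grow and survive through receptor tyrosine kinases of the VEGF family (Kdr and Flt1) and of the angiopoietin family (Tek and Tie1). They hold together through adhesion molecules such as Cdh5 and Pecam1, and their genes are driven largely by ETS transcription factors, among them Erg.

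The sequences around the summits that stand for each member are given first, to show what the list marks at these genes. Each is the forward strand of mm10 from 100 bp before to 100 bp after the summit, without bases of untranslated regions where these made up more than 30 bases. Capitals mark CNGGAAG on either strand (N is any base), a pattern of the core that ETS factors recognize. The window at the Cdh5 promoter, whose summit lies in the 5′ UTR, is not printed. The Agpat2 window is shown because it holds the highest score in any of the 10 loci, and it and the highest summit in Egfl7 were chosen after the values were seen.
Flt1 promoter summit, intron 1, chr5:147725367-147725567: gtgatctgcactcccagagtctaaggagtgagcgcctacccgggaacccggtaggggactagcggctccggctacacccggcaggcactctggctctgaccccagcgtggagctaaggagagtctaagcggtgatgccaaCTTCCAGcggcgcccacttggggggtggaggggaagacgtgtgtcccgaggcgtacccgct
Egfl7 promoter summit, intron 1, chr2:26584049-26584164: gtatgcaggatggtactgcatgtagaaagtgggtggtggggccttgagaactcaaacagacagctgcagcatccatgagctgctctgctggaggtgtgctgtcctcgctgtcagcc
Egfl7 highest summit of the gene, coding exon, chr2:26589292-26589492: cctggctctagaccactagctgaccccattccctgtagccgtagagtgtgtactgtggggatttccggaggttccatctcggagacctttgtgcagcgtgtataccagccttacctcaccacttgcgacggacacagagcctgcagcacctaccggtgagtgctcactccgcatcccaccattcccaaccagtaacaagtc
Pecam1 upstream summit, chr11:106722830-106723030: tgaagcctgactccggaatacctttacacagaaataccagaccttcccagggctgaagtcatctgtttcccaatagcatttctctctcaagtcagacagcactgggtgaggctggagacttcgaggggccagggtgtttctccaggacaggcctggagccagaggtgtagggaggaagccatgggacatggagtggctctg
Tek summit, intron 1, chr4:94746354-94746554: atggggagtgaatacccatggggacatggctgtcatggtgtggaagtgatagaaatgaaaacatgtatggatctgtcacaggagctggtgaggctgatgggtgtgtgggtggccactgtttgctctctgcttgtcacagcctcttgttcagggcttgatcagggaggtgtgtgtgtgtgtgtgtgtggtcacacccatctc
Erg summit, intron, chr16:95438308-95438508: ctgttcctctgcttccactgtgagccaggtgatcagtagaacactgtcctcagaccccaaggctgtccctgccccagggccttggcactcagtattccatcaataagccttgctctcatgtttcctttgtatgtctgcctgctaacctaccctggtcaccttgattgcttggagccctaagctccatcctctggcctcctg
Agpat2 upstream summit, chr2:26609320-26609520: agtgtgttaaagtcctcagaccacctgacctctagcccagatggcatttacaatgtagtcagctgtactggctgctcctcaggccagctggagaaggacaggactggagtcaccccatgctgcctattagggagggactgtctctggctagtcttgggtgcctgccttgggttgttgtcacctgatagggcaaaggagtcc
Of these stretches, that of Flt1 held the ETS pattern once and the others did not. In the whole window of the Egfl7 promoter summit, 1 match lay in the bases that are not printed. The scores at their summits ran from 2.15 at Tek to 63.7 at Agpat2.

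The summits fell mostly in the locus of a single member. The locus of Egfl7, a secreted protein of endothelial cells, held 46 of the 62 summits (74.2%), and the other 9 loci together held 16. Pecam1 had 6 summits, Flt1 had 4, Cdh5 had 3, Erg had 2 and Tek had 1. Kdr, Tie1, Emcn and Vwf had none. Of all 21000 genes with a curated mRNA, 72.5% had a summit in a locus defined in the same way, beside 6 of the 10 members, and 27.5% had none, beside 4. The median number of summits per locus was 1.5 in the members and 2 over all genes. Per 100 kb of locus, which takes the length of the loci into account, the medians were 0.63 in the members and 1.66 over all genes. The members' counts per locus therefore lay near the background, except at Egfl7, while their median density lay below it.

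**Figure D1:**
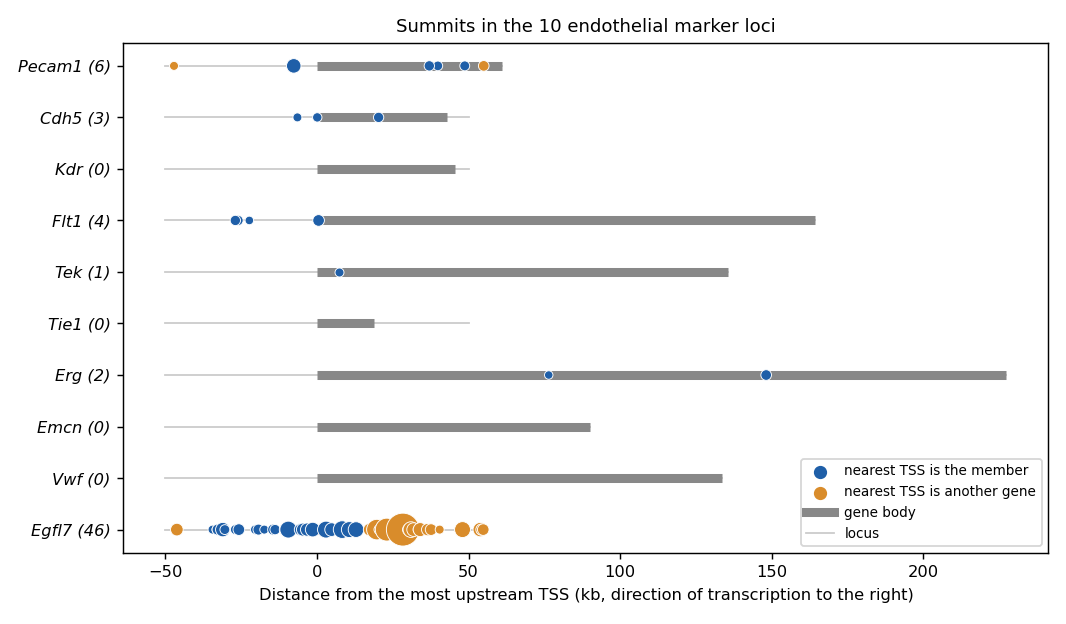
Summits in the locus of each member, drawn as circles at their distance in kb from the most upstream TSS with transcription to the right and with a larger circle for a higher score. Numbers in brackets are summits per locus, and the 46 summits of Egfl7 stand against 0 to 6 at the other 9 genes.

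Among the VEGF receptors, the 2 members differed. Flt1 (VEGFR1), which binds VEGF-A, VEGF-B and placental growth factor, is a minus-strand gene at chr5:147561604-147726011 (mm10, as all positions here). Its promoter summit at 147725467 stood in intron 1, 544 bp past the TSS, with a score of 5.55, where the median of the list was 5.0. The same score stood at 687 other summits of the list. The other 3 Flt1 summits were intergenic, at 22294, 26037 and 26913 bp upstream of the TSS, with scores of 1.71, 3.75 and 3.75. No summit lay in the remaining introns or exons of the gene, which spans 164408 bp. Kdr (VEGFR2), the main signaling receptor for VEGF-A, is a minus-strand gene at chr5:75932827-75978455. The summit nearest to its TSS was 162069 bp away at 76140524, 251 bp past the start of Srd5a3, and its score was 5.83.

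The angiopoietin receptors had a single summit between them. Tek, also called Tie2, is a plus-strand gene at chr4:94739289-94874976. The only summit, at 94746454 in intron 1, lay 7165 bp past the TSS, with a score of 2.15 that 1669 other summits shared. The rank of this score was 28201 of 32173. Tie1, the receptor that pairs with Tek, is a minus-strand gene at chr4:118471191-118489849. The summit nearest to the Tie1 TSS lay 58137 bp away, outside the locus, and scored 158.9 (rank 22), with Tmem125 as the gene of its nearest TSS.

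The adhesion molecules had 6 and 3 summits. Pecam1 (CD31), which joins endothelial cells and leukocytes, is a minus-strand gene at chr11:106654213-106715281. Its highest summit, at 106722930, was intergenic at 7649 bp upstream of the TSS, and scored 10.1 (rank 7484). This was the highest score outside the Egfl7 locus and the only one of those 16 that reached 10. Pecam1 had 4 summits in its introns, at 37067 to 55021 bp downstream of the TSS, with scores from 2.92 to 4.16. The sixth, in an intron of Milr1, had a score of 2.15. Cdh5 (VE-cadherin), the cadherin of endothelial junctions, is a plus-strand gene at chr8:104101625-104144502. A promoter summit at 104101731 stood in the 5′ UTR of exon 1, 106 bp past the TSS, with a score of 2.59. Its other summits lay 6437 bp upstream, with a score of 2.15, and 20346 bp downstream in intron 2, with a score of 3.70. All 3 Cdh5 scores lay under the list's median.

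Erg, the ETS factor of the endothelial lineage, has the longest locus of the members (277 kb). It is a minus-strand gene at chr16:95359169-95586593 with 3 TSSs. Neither of its summits lay near one of these. The summit at 95438408 was 20940 bp downstream of the nearest Erg TSS, in an intron, with a score of 4.16. The summit at 95510134 was 20231 bp downstream of another, also in an intron, with a score of 1.6. The surface sialomucin Emcn (chr3:137341078-137431069) and the clotting glycoprotein Vwf (chr6:125552948-125686679), which is stored in endothelial granules, had no summit in loci of 140.0 kb and 183.7 kb. The nearest summits to their TSSs were 282833 bp away, with a score of 2.69, and 126412 bp away, with a score of 2.15.

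**Figure D2:**
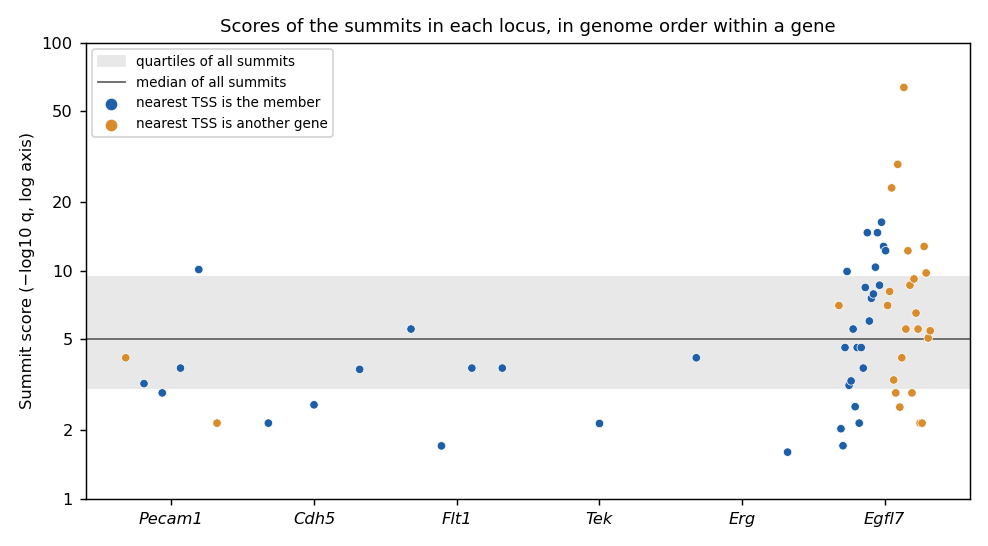
Score of each summit (−log10 q, log axis) in the 6 loci that held any, with the median and quartiles of all 32173 summits as a line and a band. Outside Egfl7, 14 of 16 scores lie under a score of 5, and the highest is the 10.1 at Pecam1.

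The 16 summits of the other 9 loci had a median score of 3.45 and quartiles of 2.15 and 3.85, and over all summits these were 5.0, 3.05 and 9.39. Of the 16, 14 lay more than 1 kb from a TSS of any gene, beside 21798 of all 32173 summits, and scores were not compared at like distance. A score of at least 10 was reached by 1 of these 16 and by 23.5% of all summits. The 46 summits of the Egfl7 locus included 11 of at least 10. Over all 62 member summits the median was 4.84, close to that of the list.

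Egfl7 differed from the other members in the genes around it. Egfl7 is a plus-strand gene at chr2:26581083-26592682 and ends 375 bp before the 3′ end of Agpat2, which is on the minus strand at chr2:26593057-26604417. Agpat2 is an acyltransferase of triglyceride synthesis that adipocytes need to form. Of the 46 summits, 23 had an Egfl7 TSS as the nearest, 14 the TSS of Agpat2, 8 that of Dipk1b and 1 that of Notch1, which encodes a receptor of vessel formation. The 14 summits nearest to Agpat2 had scores from 2.53 to 63.7 with a median of 7.58, and the 23 nearest to Egfl7 had scores from 1.71 to 16.3 with a median of 6.02. The highest score, 63.7 at 26609420, ranked 277 in the list and lay 5003 bp upstream of the Agpat2 TSS. The next were 29.3 at 26604113 in the coding part of exon 1 of Agpat2 and 23.1 at 26600868 in its intron 1. The highest scores of the locus thus stood at Agpat2, and which cells these peaks came from was not tested.

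Of the summits nearest to Egfl7, 4 lay in the gene. The highest, at 26589392 in a coding exon, scored 16.3 (rank 4200). The promoter summit at 26584064 stood in intron 1, 199 bp past the middle TSS, with a score of 14.7. A second promoter summit at 26585926 was 710 bp upstream of the third TSS, with a score of 8.65. The most upstream TSS had no summit within 1 kb, and the nearest upstream summit was at 1402 bp with a score of 10.4. The fourth summit in the gene, at 26591775, had a score of 12.8 and lay 346 bp from the hairpin of miR-126a, an endothelial microRNA that is encoded in an Egfl7 intron. Its mature sequence in RefSeq (GRCm38.p6), with the seed (bases 2 to 8) in capitals, is given because this summit is the nearest to it.
mmu-miR-126a-3p: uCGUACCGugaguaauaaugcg
A run of 19 summits lay upstream of Egfl7 towards Notch1, from 1.40 to 46.2 kb before the most upstream Egfl7 TSS and all outside genes. Their scores ran from 1.71 to 14.7 with a median of 4.61, and 18 of them were nearest to Egfl7. Over the whole locus, neighboring summits were a median of 1696 bp apart. With 46 summits in 106 kb, the locus held 43.6 per 100 kb, and the median over all genes was 1.66. Of the 21000 genes, 0.0381% had more summits in their locus.

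**Figure D3:**
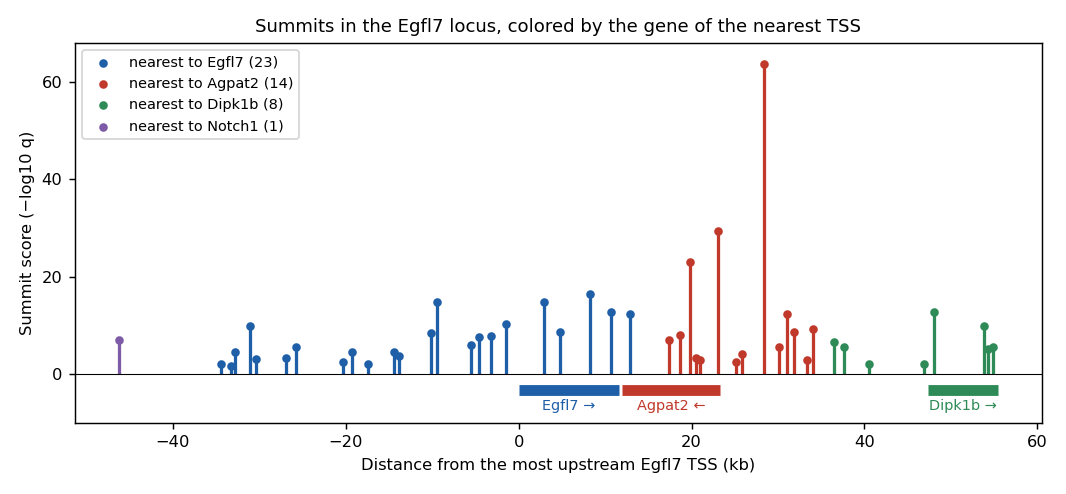
Score of each of the 46 summits of the Egfl7 locus against its distance in kb from the most upstream Egfl7 TSS, colored by the gene of the nearest TSS, with gene bodies and direction of transcription below. The 3 highest scores, 63.7, 29.3 and 23.1, are nearest to Agpat2.

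Promoter summits, within 1 kb of a TSS, were at 3 of the 10 members, Egfl7, Flt1 and Cdh5. Over all genes this share came to 45.2%. In a window of 1 kb before to 100 bp after the TSS, it was 1 member, beside 35.2% of all genes. Counting scores of at least 10, Egfl7 was left, beside 23.5% of all genes. A summit in the gene body was at 6 of 10 members and at 39.7% of all genes. The 6 members with any summit in the locus each had one that was nearest to them, beside 54.5% of all genes. With 10 genes, each of these counts lies within a few genes of the background share, and nothing particular to the members is read from them.

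Promoters rich in G and C carried summits more often in the list as a whole. Among 5 classes of about equal size of TSSs by GC content of the promoter (250 bases before to 50 bases after the TSS), 7.84% of the lowest and 66.8% of the highest class had a summit within 1 kb. The 14 TSSs of the members had a median GC content of 57.5%, and all 26032 TSSs had 56.7%. The median number of CG dinucleotides was 5 in the members' promoters and 13 in all promoters. The 4 member TSSs with a summit were those of Flt1 (70.7% GC), 2 of the 3 of Egfl7 (67.3% and 59.0%) and Cdh5 (59.3%). Kdr (60.7%) and Tie1 (60.3%) had none, in a class where 66.2% of TSSs had one. Emcn (41.0%), Pecam1 (48.0%), Tek (52.0%) and the 3 TSSs of Erg (37.3% to 50.3%) lay in the 2 lowest classes. Vwf (56.7%) lay in the middle class.

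**Figure D4:**
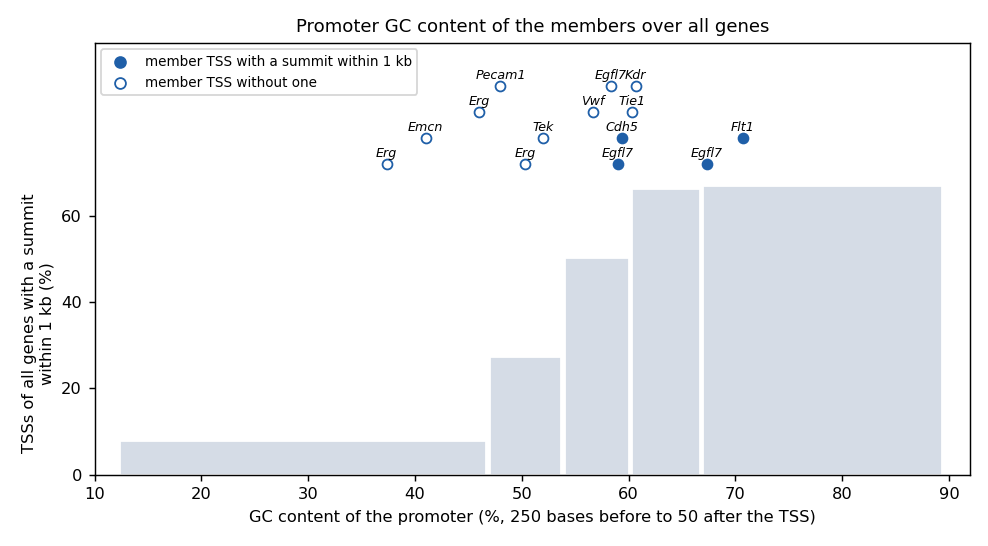
Bars give the share of all TSSs with a summit within 1 kb in 5 classes of promoter GC content, and circles place the 14 member TSSs on the same GC axis, their height having no meaning. Filled circles, the TSSs with a summit, lie at 59.0% GC or above, and Kdr and Tie1 at about the same GC content are open.

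The sequence before the TSS is given for 2 members with a promoter summit and for 3 without any summit in the locus, so that they can be read side by side. Each is the 250 bases before the TSS on the gene's own strand, from RefSeq (GRCm38.p6, the build mm10), with CNGGAAG on either strand in capitals. RefSeq promoters of 7 members were matched by symbol, and those of Pecam1, Cdh5 and Vwf were not.
Egfl7, middle TSS, plus strand, chr2:26583615-26583864: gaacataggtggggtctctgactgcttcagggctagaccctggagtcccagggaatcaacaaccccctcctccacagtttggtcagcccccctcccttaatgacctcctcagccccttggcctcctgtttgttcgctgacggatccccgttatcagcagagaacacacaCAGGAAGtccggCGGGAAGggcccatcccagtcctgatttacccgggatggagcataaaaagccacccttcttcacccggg
Flt1, minus strand, chr5:147726012-147726261: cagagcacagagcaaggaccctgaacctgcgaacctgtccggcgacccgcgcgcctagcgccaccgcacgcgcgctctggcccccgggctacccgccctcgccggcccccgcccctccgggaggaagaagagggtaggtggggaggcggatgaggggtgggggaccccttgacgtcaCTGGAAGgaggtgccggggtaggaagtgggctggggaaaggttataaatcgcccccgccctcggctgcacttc
Tie1, minus strand, chr4:118489850-118490099: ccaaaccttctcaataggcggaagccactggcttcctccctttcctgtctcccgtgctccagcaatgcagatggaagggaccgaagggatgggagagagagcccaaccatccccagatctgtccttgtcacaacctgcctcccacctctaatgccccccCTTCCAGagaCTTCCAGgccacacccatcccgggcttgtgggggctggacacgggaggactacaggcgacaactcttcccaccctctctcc
Kdr, minus strand, chr5:75978456-75978705: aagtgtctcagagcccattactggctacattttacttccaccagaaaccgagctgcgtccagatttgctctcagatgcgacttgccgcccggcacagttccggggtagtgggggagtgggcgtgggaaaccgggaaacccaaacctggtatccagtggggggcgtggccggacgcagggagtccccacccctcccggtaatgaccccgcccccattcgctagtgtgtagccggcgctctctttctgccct
Emcn, plus strand, chr3:137340828-137341077: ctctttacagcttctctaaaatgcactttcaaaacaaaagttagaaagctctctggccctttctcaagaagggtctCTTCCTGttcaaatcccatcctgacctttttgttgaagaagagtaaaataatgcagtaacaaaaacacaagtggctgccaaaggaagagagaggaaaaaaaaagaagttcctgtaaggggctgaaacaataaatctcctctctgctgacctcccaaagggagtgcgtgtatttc
The pattern stood in the promoters with and without a summit. The middle Egfl7 promoter held it at 81 and 69 bases before the TSS, and the Tie1 promoter held it at 91 and 81 bases before. It was found once in Flt1 and once in Emcn and not in Kdr. Read from the genome over 250 bases before to 50 after each TSS, 8 of the 14 member TSSs held it, beside 33.8% of all TSSs.

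The patterns near the summits were counted within 100 bp. The ETS pattern was at 10 of the 62 member summits (16.1%), at 22.7% of all summits and at 19.4% of summits more than 1 kb from a TSS. Of the members' 62, 55 lay more than 1 kb from a TSS of any gene. Among the 14 summits nearest to a member other than Egfl7, 2 held it, at Pecam1 and Flt1. A GATA pattern, AGATAA, was at 4 of 62 summits (6.45%) and at 3.78% of all (4.26% of those more than 1 kb from a TSS), and the promoter summit of Cdh5 was one of these. A SOX pattern, CCATTGT, was at 3 (4.84%), beside 1.72% of all and 1.92% away from a TSS. An AP-1 pattern, TGANTCA, was at 3 (4.84%), beside 6.40% and 7.68%. A FOX pattern, TGTTTAC, was at none, beside 1.56% and 1.67%. The SP/KLF pattern GGGCGG, which is common in GC-rich promoters, was at 3 (4.84%) against 20.6% of all and 9.07% of those more than 1 kb from a TSS. The palindromic NFI pattern was at none, beside 0.0528% and 0.0596%. All patterns were searched on both strands, and a match is a run of letters, not a bound site.

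Genes that act with the members were also described. Of 5 VEGF ligands, Vegfa, which adipocytes also make, had a promoter summit with a score of 18.8 and Pgf one of 2.53, and Vegfb, Vegfc and Vegfd had none. None of the 3 angiopoietins Angpt1, Angpt2 and Angpt4 had one. The receptor Flt4, on lymphatic endothelium, had a promoter score of 3.32, the VEGF co-receptors Nrp1 and Nrp2 had 2.53 and 8.65, and Ptprb, the phosphatase that acts on Tek, had 4.16. Of 16 further surface and junction genes, 10 had a promoter summit, with a median score of 6.01 among these. Nos3, the nitric oxide synthase of vessels, and Esam, a junction molecule, had the highest, 18.8 and 9.78. Icam2 and Plvap had none. Of 18 transcription factors active in endothelium, 11 had one, with 18.6 at the flow-responsive factor Klf2 and 16.0 at Etv6, while Elk3 and Sox18 had none. Of 8 Notch pathway genes 7 had one, with 18.8 at Jag1, 14 at Hey2 and 11.2 at Notch1, the neighbor of Egfl7, and Jag2 had none. Of 6 genes of capillary lipid handling, 4 had one, 35.0 at Fabp4 and 23.1 at Lpl, which adipocytes also express, 4.16 at Cd36 and 3.79 at Gpihbp1, the endothelial anchor of Lpl. Meox2 and Tcf15 had none. The lymphatic genes Prox1, Lyve1, Pdpn and Ccl21a had none. Across these 64 genes, 38 (59.4%) had a promoter summit, beside 45.2% of all genes, and in 12 (18.8%) it scored at least 10, beside 23.5%. Many of them are also expressed outside endothelium.

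Beside markers of other cells of BAT, the members had fewer promoter summits than adipocyte markers. Of 10 brown adipocyte markers, which mark the cells that lose Dot1l, 9 had a promoter summit, beside 45.2% of all genes, and 6 had one with a score of at least 10, beside 23.5%. Cidea and Ucp1 had the highest scores, 61.5 and 33.7, and Adrb3 had none. Their loci held a median of 10.5 summits, where the median over all genes was 2, and none was without, beside 27.5% of all genes. Of 10 progenitor and mural markers, 3 had a promoter summit, Pdgfra with 4.16, Col1a1 with 3.75 and Cspg4 with 2.53, and none reached 10. Of 10 macrophage markers, Cd68 had one with a score of 2.15, and 6 loci had no summit, to be read against the same shares of all genes. These lists were set side by side without a test, whether their scores measure open chromatin or an excess of one genotype cannot be told apart, and their genes were not matched for promoter GC content or for neighboring genes.

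**Figure D5:**
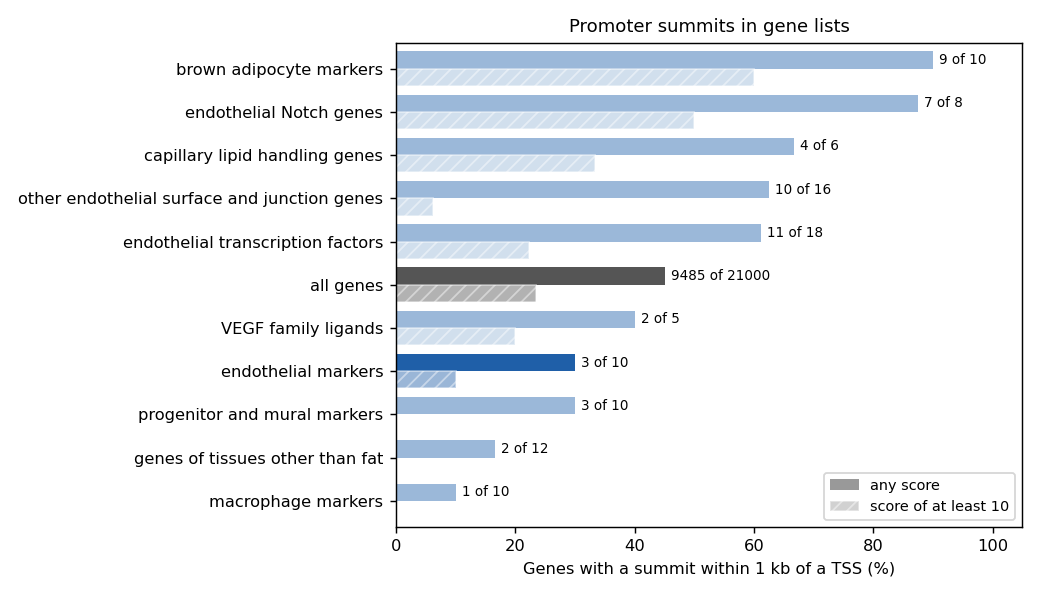
Share of genes in each list with a summit within 1 kb of a TSS (%), with any score (solid bars) and with a score of at least 10 (hatched bars), and the number of genes beside each bar. The endothelial markers stand at 3 of 10 (1 of 10 from 1 kb before to 100 bp after the TSS), with 9 of 10 brown adipocyte markers above and 1 of 10 macrophage markers below.

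At the edge of the 50 kb that defined a locus, the farthest summits that were members by distance were at 49304 bp (score 5.46) and 48732 bp (score 5.07) from Egfl7 and at 48759 bp (score 3.20) from Pecam1. The Pecam1 summit at 55021 bp (score 4.16) was a member through the gene body. Just outside were summits at 52221, 54261 and 55469 bp from Egfl7, with scores of 16.0, 4.61 and 5.93. Between 50 and 100 kb lay 19 further summits at Egfl7, 4 at Pecam1, 4 at Tie1 and 1 at Cdh5, and none at the other 6 members.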

How the data were processed

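ATAC-seq of BAT nuclei of 4 mice, 2 per genotype, was used, and RNA-seq was not analysed here. The authors aligned paired-end reads to mm10 with BWA-backtrack (Partek Flow) and ran MACS2 (2.1.1, per the submitters' processing notes) for ATAC data, keeping peaks at q-values up to 0.05 and at least 2-fold enrichment. The deposited values are the −log10 of the q-value of each peak, in 1 list for the 4 libraries. How shifted, duplicate, multi-mapped or mitochondrial reads were handled is not given in the sources used here.

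Summits were placed on curated RefSeq mRNAs (GRCm38.p6, which is mm10) of chromosomes 1 to 19, X and Y. Loci, promoter windows, nearest TSSs and patterns were counted with Python 3.11.15, numpy 2.4.6 and pandas 2.3.3. Counts over all genes or summits are the background, and no statistical test was run. The assignment of summits to genes was tested on simulated data. All 10 members were named, together with neighboring genes nearest to 4 or more summits of a locus or to its highest summit, and up to 4 examples per list (the 2 highest promoter scores and those listed first without one). Further genes of the short lists, Milr1, Notch1 as a neighbor, and the genes at the nearest summits of Kdr and Tie1 were outside this rule and chosen after their values were seen. The members and lists were chosen with earlier results of these data known. Alternatives changed the score minimum, the locus, the promoter window, the transcripts, the merging of close summits and the pattern window.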

Additional observations from a re-analysis of the deposited data

How the results depend on the processing

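No paired analysis was possible because values are given per peak and not per library, which also left no way to omit a replicate. Unknown depth limits what the absence of a summit shows. A score minimum, a narrower locus and leaving out Egfl7 lower counts by construction, and the omission of Egfl7 and all alternatives for members with any summit were chosen after seeing the data. Scores of at least 5 gave 31 member summits (15 nearest to a member, median scores 8.65 and 9.93) in 3 loci. Scores of at least 10 gave 12 (7 nearest to a member, medians 13.7 and 12.8) in 2 loci, 1 member with a promoter summit and 3 summits with the ETS pattern. Merging summits within 500 bp gave medians of 5.03 and 4.38. Gene bodies plus 10 kb held 22 summits (21 nearest, medians 5.79 and 6.02), gene bodies alone 14 (13 nearest, medians 3.95 and 3.75), and 100 kb gave a median of 4.93. Without Egfl7 there were 16 summits (14 nearest, medians 3.45 and 3.45), 2 with the ETS pattern. A promoter window of 1 kb before to 100 bp after the TSS left 1 member with a promoter summit, 35.2% of all genes and 9 of 10 brown adipocyte markers. The ETS pattern was at 5 of 62 summits within 50 bp (12.2% of all summits), 32 within 250 bp (44.3%), and 1 with CCGGAAG (5.38%). Predicted mRNAs changed no count of the members. Of 35 promoter counts of the lists set beside the members and of all genes, 29 stayed within 1.5 times the main count. At scores of at least 5, macrophage markers went from 1 to 0 and progenitor and mural markers from 3 to 0, both also at 10, where the other endothelial lists went from 38 to 12 and all genes from 9485 to 4944.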

Other observations

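Including Egfl7, 12 of 21000 genes had at least 46 summits in their locus, whatever its length, and 18 had at least as many per 100 kb. Tns1, an adaptor of cell adhesions, had the highest number, 69. Agpat2 also had 46, of which 39 were the same summits. Col4a1 and Col4a2, neighboring genes for the collagen chains of basement membrane that endothelial cells and adipocytes both lay down, had 49 and 48 on chromosome 8, with the same promoter score of 9.21. How many summits these neighbors share was not counted, so their loci may not be separate. These genes were named after their values were seen. Among genes of tissues other than fat, the insulin genes Ins1 and Ins2 had no summit in their loci, and neither did Alb, Gcg or Krt5.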
